A study of Mus musculus with 8 samples.

Results

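The DnaJ genes of the mouse pineal gland were described one by one and by class. They were taken as the rows of the expression table that are annotated as protein-coding and whose symbol begins with Dnaja, Dnajb or Dnajc followed by a number. This gave 45 of the 53710 genes in the table, with 4 in class A, 13 in class B and 28 in class C. The rule uses no expression value, but the members were chosen with earlier results of these data known. Total RNA of 4 pools of pineal glands from 5xFAD mice (libraries 5xFAD-1, 5xFAD-2, 5xFAD-3, 5xFAD-21) and 4 such pools from wild type mice (libraries Normal-11, Normal-21, Normal-22, Normal-23) was sequenced, and sets of 4 values below follow this order. 5xFAD mice are a model of Alzheimer's disease (AD) that carries human APP with the Swedish, Florida and London mutations and human PS1 with M146L and L286V. Both transgenes are driven by the neuronal Thy1 promoter. The wild type mice were C57BL/6 mice of another supplier, so that supplier and genotype cannot be told apart. All mice were stated to be male and 5 months old, none was treated, and 5 to 7 glands taken at zeitgeber time 0.5 h, counted from lights on, were pooled per library.

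DnaJ proteins, also called J proteins or Hsp40 proteins, bring unfolded or assembled client proteins to chaperones of the HSP70 family and start the ATP hydrolysis by which HSP70 grips them. Class A members have the J domain, a glycine-rich stretch and a zinc-binding region, class B members lack the zinc-binding region, and class C members share only the J domain and serve narrow tasks such as clathrin uncoating, protein import, splicing or ribosome assembly. In neurons several of them act on proteins that aggregate, and in cells that make serotonin, such as pinealocytes, Dnajc12 assists the hydroxylases that need tetrahydrobiopterin.

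The libraries carried the pineal transcript Tph1, which encodes the hydroxylase of serotonin synthesis, at 1630, 1900, 741 and 737 FPKM (fragments scaled to transcript length and library size) in the 5xFAD libraries and at 643, 613, 1236 and 968 FPKM in the wild type libraries. At the depth read from the lowest values, an FPKM of 1 on a transcript of 2 kb stood for 25.1 to 35.9 fragments in 5xFAD and 22 to 27.3 fragments in wild type. Normal-22 stood apart with 13.3 FPKM of Xist, a transcript of cells with an inactive X chromosome, against at most 0.0404 FPKM in the other libraries, so that 1 of 8 libraries did not match the stated sex. It also carried Y-linked transcripts, with Uty (21.2 FPKM) and Eif2s3y (39.1 FPKM) within the range of the other libraries and Kdm5d (9.04 FPKM) and Ddx3y (32.0 FPKM) under it. 5xFAD-2 had a sum of 996 FPKM over 5 brown fat markers, against 13.4 to 76.0 FPKM in the other 5xFAD libraries and 12.2 to 29.1 FPKM in wild type. Fos, an immediate early gene singled out after its values were seen, had 43.1 FPKM in 5xFAD-21 and 69.0 FPKM in 5xFAD-2, against 1.11 and 1.23 FPKM in the remaining 5xFAD libraries and 0.918 to 2.23 FPKM in wild type. Of 5 choroid plexus markers, Ttr was listed at 0 in every 5xFAD library and had 9440 to 19630 FPKM in wild type, while the sums over the other 4 (Folr1, Kl, Kcnj13 and Clic6) overlapped, with 38.3 to 754 FPKM in 5xFAD and 303 to 563 FPKM in wild type. Sums over 5 osteoblast markers were 36.5 to 412 FPKM in 5xFAD and 84.0 to 1950 FPKM in wild type, over 5 bone marrow neutrophil markers 22.7 to 246 FPKM in 5xFAD and 19.8 to 435 FPKM in wild type, and over 7 pinealocyte markers 1765 to 2958 FPKM in 5xFAD and 1114 to 2587 FPKM in wild type. Among the wild type libraries, Normal-22 had the highest of the pinealocyte sums and the lowest of the osteoblast, neutrophil and choroid plexus sums. Their part in the DnaJ values was not tested. For the marker sums, fewer cells of a type and less RNA per cell cannot be told apart in such pools. Why Ttr was listed at 0 in the 5xFAD libraries was not tested.

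Most DnaJ genes were expressed in this gland. The level required for a test, 1 FPKM or more on average across libraries, was reached by 39 of 45 members, all 4 of class A, 10 of 13 of class B and 25 of 28 of class C. The highest level was that of Dnajc8, a protein bound to splicing factors, with a mean of 93.4 FPKM, which lay above 96.0% of the 13094 protein-coding genes tested. Dnajc10 (56.2 FPKM), Dnaja2 (51.8 FPKM), Dnajb6 (51.5 FPKM), Dnajc7 (46.9 FPKM), Dnajb4 (46.6 FPKM), Dnajc3 (44.8 FPKM) and Dnaja1 (41.6 FPKM) followed. These genes bring together the reductase of the endoplasmic reticulum (Dnajc10), the general co-chaperones of the cytosol and the kinase inhibitor of the stressed endoplasmic reticulum (Dnajc3). Neighbours in that order from Dnajc10 to Dnaja1 had ranges over the 8 libraries that overlap. The lowest means among the tested members were those of Dnajb3 (1.68 FPKM) and Dnajb5 (3.48 FPKM).

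The 6 members under that level included genes known mainly from testis. Dnajb8 and Dnajc5g were listed at 0 in every library. Dnajb7 had 0 to 0.178 FPKM in 5xFAD and 0.0706 to 0.235 FPKM in wild type, and Dnajc22 had 0 to 0.312 FPKM in 5xFAD and 0 to 0.108 FPKM in wild type. Dnajc5b, a relative of the cysteine string protein Dnajc5, had 0.417 to 1.45 FPKM in 5xFAD and 0.359 to 1.21 FPKM in wild type. Dnajb13, an axonemal protein, had 0.256 to 1.82 FPKM in 5xFAD and 0.435 to 1.36 FPKM in wild type, and its exons overlap Ucp2 on the opposite strand. The groups overlapped in each of these genes.

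**Figure D1:**
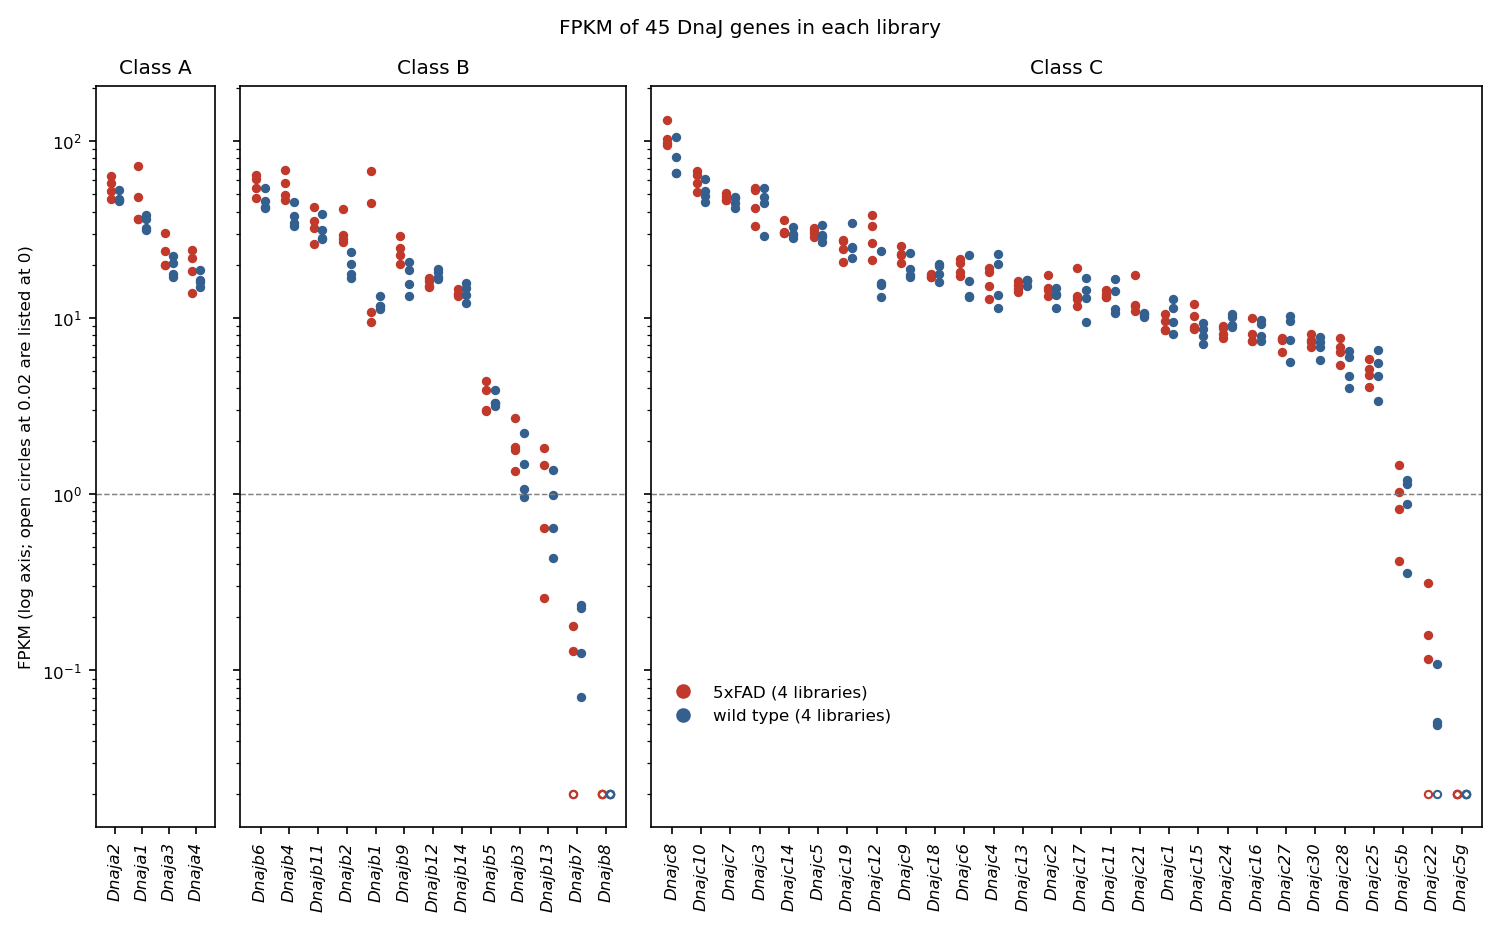
FPKM on a log axis for each of the 45 DnaJ genes in 4 5xFAD libraries (red, left of each pair) and 4 wild type libraries (blue), by class and in order of the mean. The dashed line marks the mean level of 1 FPKM required for a test, open circles stand for values listed at 0, and the upper red points of Dnajb1 (68.1 and 44.7 FPKM) lie far from its other values.

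The comparison of 5xFAD with wild type asked whether the co-chaperones stood at another level in the gland of the AD model. No DnaJ gene passed an adjusted p of 0.05 in limma, where 5 of 13094 genes (0.0382%) did, and the smallest adjusted p among the members was 0.525, for Dnajb2. At an unadjusted p under 0.05, 6 of the 39 tested members were higher in 5xFAD and 0 were lower, beside 4.6% of all genes tested that were higher and 3.35% that were lower. With libraries scaled to equal protein-coding totals, the shares over all genes were 6.77% higher and 1.66% lower. These 6 were Dnajb2, Dnajb4, Dnajb9 and Dnajb6 in class B and Dnajc12 and Dnajc8 in class C. All 4 5xFAD libraries lay above all 4 wild type libraries in 3 members (Dnajb2, Dnajb4 and Dnajc21), beside 2.11% of all genes, and all lay below in 0 members, beside 2.23% of all genes. An exact permutation test over the 70 ways to choose 4 of 8 libraries gave these 3 genes the smallest two-sided p it can give, 0.0286. Groups that do not overlap always get this p, so that it adds nothing to the lack of overlap.

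The class medians lay above 0. The median log2 fold change of 5xFAD over wild type, on the scale of log2(FPKM + 0.1), was 0.24 for the 4 members of class A, 0.36 for the 10 tested members of class B and 0.08 for the 25 tested members of class C, beside −0.01 for all genes tested. Values above 0 were found in 4 of 4, 8 of 10 and 17 of 25 members of classes A, B and C, beside 48.7% of all genes. Among genes with a mean of at least 5 FPKM this share was 52.4%, and with equal protein-coding totals it was 54.0% of all genes tested. At an unadjusted p under 0.05 there were 0 members of class A, 4 of class B and 2 of class C, all of them higher in 5xFAD. Without 5xFAD-2 and 5xFAD-21 the medians were 0.06, 0.21 and 0.06 in classes A, B and C. No test of the difference between classes was made. Grouped by the place of the protein in the cell, the 10 members of the cytosol and nucleus had a median of 0.36 with 10 above 0, the 10 of the endoplasmic reticulum 0.03 with 6 above 0, the 5 of mitochondria 0.11 with 4 above 0, the 5 of ribosome, splicing and histones 0.26 with 5 above 0, the 3 of vesicles and endosomes 0.05 with 2 above 0, and the 6 members given no place (Dnajb3, Dnajc4, Dnajc18, Dnajc24, Dnajc27 and Dnajc28) −0.05 with 2 above 0.

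**Figure D2:**
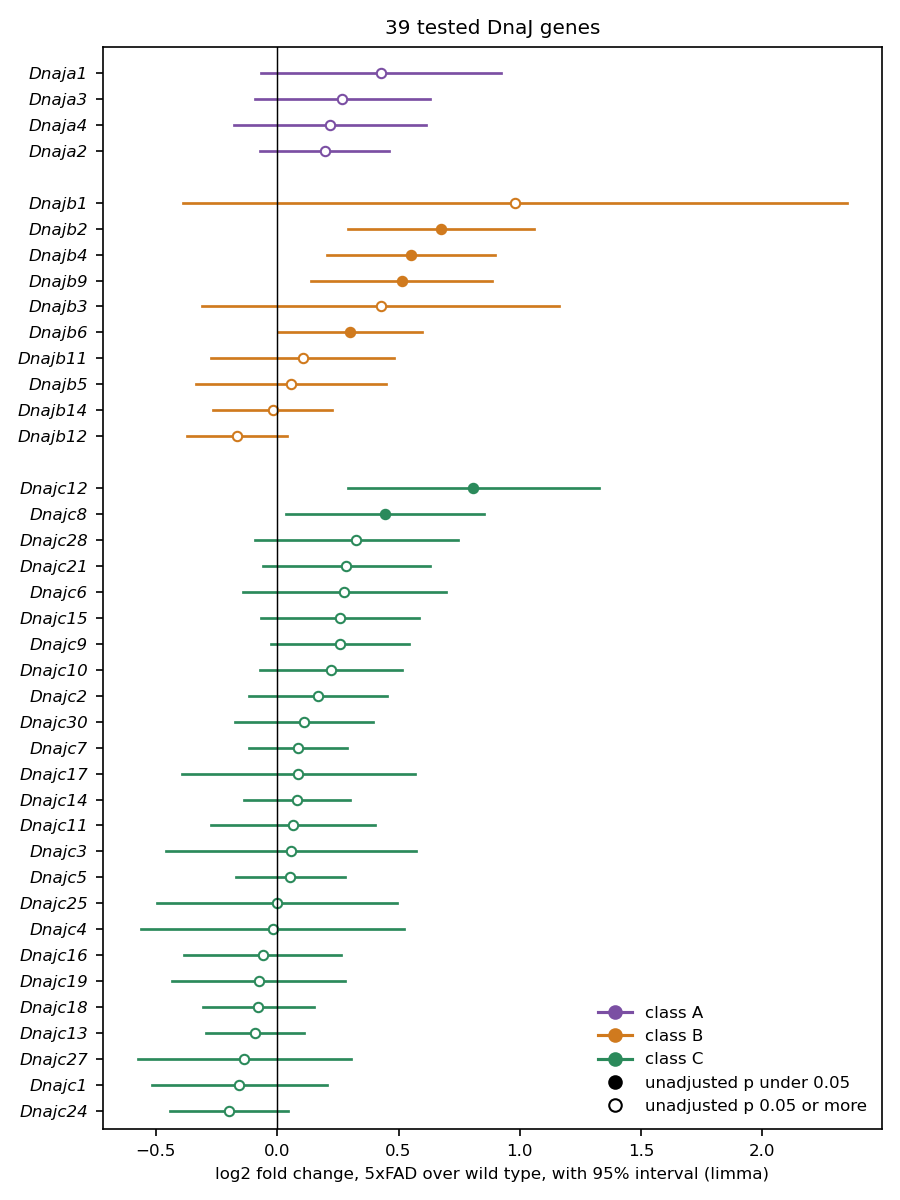
Log2 fold change of 5xFAD over wild type with its 95% interval from limma for the 39 tested DnaJ genes, by class (purple A, orange B, green C). Filled points mark an unadjusted p under 0.05, which Dnajb2, Dnajb4, Dnajb9, Dnajb6, Dnajc12 and Dnajc8 had, and the widest interval, from −0.39 to 2.35, belongs to Dnajb1.

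Class A holds the general co-chaperones of the cytosol, Dnaja1, Dnaja2 and Dnaja4, and Dnaja3 of the mitochondrial matrix. Dnaja1, which works with the constitutive HSP70 in protein refolding and import, had 36.3, 72.8, 36.2 and 48.6 FPKM in the 5xFAD libraries, against 38.3, 31.6, 32.1 and 36.4 FPKM in the wild type libraries. 5xFAD-2 and 5xFAD-21 lay above every wild type library and the remaining 5xFAD libraries lay among them. The log2 fold change was 0.43 (standard error 0.22, unadjusted p = 0.0820, adjusted p = 0.641) and came to 0.07 without 5xFAD-2 and 5xFAD-21. Dnaja2, a strong partner of HSP70 in refolding, had 58.2, 63.9, 46.8 and 52.6 FPKM in 5xFAD, against 45.9, 46.5, 53.2 and 47.0 FPKM in wild type, a log2 fold change of 0.20 (adjusted p = 0.691). Normal-22 was the highest wild type library here. Dnaja3 had 20.0, 30.3, 19.9 and 24.0 FPKM in 5xFAD, against 16.997, 17.7, 22.3 and 20.5 FPKM in wild type, and Dnaja4 had 13.8, 21.9, 18.4 and 24.2 FPKM in 5xFAD, against 14.99, 15.9, 18.7 and 16.4 FPKM in wild type. Their log2 fold changes were 0.27 (adjusted p = 0.689) and 0.22 (adjusted p = 0.750), and in each of them 5xFAD-2 and 5xFAD-21 were the 2 libraries above the highest wild type value. Exons of 18 of the 45 members overlap those of another annotated gene, on the opposite strand in 17 and on the same strand in 5, and the strand setting of the counting is not given in the sources used here. In class A these were Dnaja1 (Smu1, Gm6297 and, on its own strand, Mir207), Dnaja3 (Coro7 and, on its own strand, Vasn) and Dnaja4 (Wdr61).

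Dnajb1, the heat-inducible co-chaperone that recruits HSP70 to aggregates, varied most among the 5xFAD libraries. It had 9.40, 68.1, 10.8 and 44.7 FPKM in the 5xFAD libraries, against 13.2, 11.7, 11.2 and 11.6 FPKM in the wild type libraries. 5xFAD-2 and 5xFAD-21 lay far above all wild type libraries, and 5xFAD-1 and 5xFAD-3 lay below all of them. The coefficient of variation was 85.3% among the 5xFAD libraries and 7.45% among the wild type libraries. The log2 fold change of 0.98 (standard error 0.60, 95% interval −0.39 to 2.35, adjusted p = 0.696) did not pass, and it was 0.47 without 5xFAD-2 and −0.24 (unadjusted p = 0.123) without 5xFAD-2 and 5xFAD-21. The heat-inducible HSP70 genes had the same high libraries. Hspa1a stood at 1.54, 23.4, 1.88 and 9.75 FPKM in 5xFAD, against 1.83, 1.85, 1.53 and 1.54 FPKM in wild type. Hspa1b stood at 1.95, 39.7, 2.43 and 14.6 FPKM in 5xFAD, against 2.05, 1.37, 1.20 and 1.25 FPKM in wild type. Fos, given above, was high in the same 2 libraries, and the brown fat markers in 5xFAD-2. Their part in the Dnajb1 values was not tested.

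**Figure D3:**
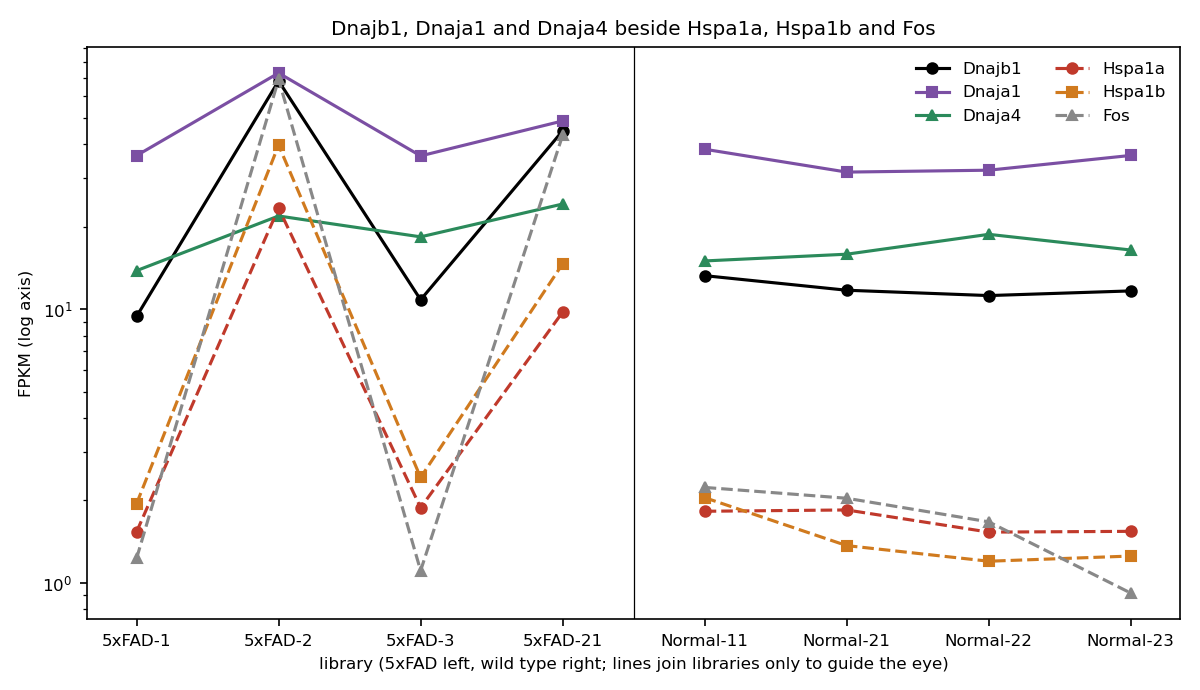
FPKM on a log axis of Dnajb1, Dnaja1 and Dnaja4 (solid lines) and of Hspa1a, Hspa1b and Fos (dashed lines) in each library, 5xFAD on the left and wild type on the right. Dnajb1 reached 44.7 FPKM in 5xFAD-21 and 68.1 FPKM in 5xFAD-2 and stayed at 9.40 to 13.2 FPKM in the other 6 libraries, and the lines only join libraries.

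In 6 of the 39 tested members 5xFAD-2 and 5xFAD-21, and no other 5xFAD library, lay above the highest wild type value, namely Dnajb1, Dnaja1, Dnaja4, Dnaja3, Dnajb5 and Dnajc15. The share of all genes tested that had this pattern was not computed. Promoters are shown for Dnajb1, Dnaja1 and Dnaja4, and for the class B members with heat shock elements (Dnajb4, Dnajb6). That of Dnajc3, the member with an endoplasmic reticulum stress element, is shown as well, so that the letters can be read beside the levels. The RefSeq windows of GRCm38.p6 hold 250 bases before the annotated start and 50 bases from it, and 50 windows matched 37 of 45 members. On both strands, a heat shock element of 3 units (GAANNTTCNNGAA or TTCNNGAANNTTC) was present in 0.603% of all 32851 windows and, among the members, in Dnajb6 alone. An element of 2 units (GAANNTTC or TTCNNGAA), which every 3-unit element contains, was present in 15.1% of all windows and in 8 of the 50 member windows (16%), those of Dnaja1, Dnaja4, Dnajb4, Dnajb6, Dnajc10, Dnajc27 and Dnajc5g. The endoplasmic reticulum stress element (ERSE, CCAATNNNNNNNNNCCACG on either strand), which contains a CCAAT box, was present in 0.119% of all windows and in that of Dnajc3. A CCAAT box (CCAAT or ATTGG) was present in 37.4% of all windows and 38% of member windows. In the sequences below, written 5′ to 3′ in the direction of the gene, capitals mark the CCAAT boxes of Dnajb1, the heat shock elements of Dnaja1, Dnaja4, Dnajb4 and Dnajb6, and the ERSE of Dnajc3. The windows are chr8:83607925-83608224 (plus strand), chr4:40722218-40722517 (plus), chr9:54699309-54699608 (plus), chr3:152193796-152194095 (minus, an alternative start inside the gene), chr5:29735648-29735947 (plus) and chr14:118937682-118937981 (plus). The starts of the windows shown for Dnaja1, Dnaja4 and Dnajb6 also lie inside the annotated genes. Each window was picked because it holds the marked element, and other windows of Dnaja1 had no heat shock element.
Dnajb1: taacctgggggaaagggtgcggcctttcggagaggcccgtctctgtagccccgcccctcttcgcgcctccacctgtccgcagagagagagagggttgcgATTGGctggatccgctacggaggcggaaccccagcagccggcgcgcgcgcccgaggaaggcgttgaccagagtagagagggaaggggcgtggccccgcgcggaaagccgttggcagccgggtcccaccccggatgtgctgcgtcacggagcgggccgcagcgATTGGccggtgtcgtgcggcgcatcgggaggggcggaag
Dnaja1: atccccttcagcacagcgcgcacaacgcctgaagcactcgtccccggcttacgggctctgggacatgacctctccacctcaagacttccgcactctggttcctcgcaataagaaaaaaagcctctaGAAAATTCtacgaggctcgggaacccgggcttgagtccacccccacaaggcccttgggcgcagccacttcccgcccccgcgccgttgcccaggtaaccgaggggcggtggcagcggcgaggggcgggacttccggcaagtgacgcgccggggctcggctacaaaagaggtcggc
Dnaja4: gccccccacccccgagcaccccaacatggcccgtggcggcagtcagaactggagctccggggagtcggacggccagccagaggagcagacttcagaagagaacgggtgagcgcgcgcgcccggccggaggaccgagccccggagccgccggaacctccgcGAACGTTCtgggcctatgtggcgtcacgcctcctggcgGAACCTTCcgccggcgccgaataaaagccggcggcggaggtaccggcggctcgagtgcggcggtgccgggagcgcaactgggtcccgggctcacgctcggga
Dnajb4: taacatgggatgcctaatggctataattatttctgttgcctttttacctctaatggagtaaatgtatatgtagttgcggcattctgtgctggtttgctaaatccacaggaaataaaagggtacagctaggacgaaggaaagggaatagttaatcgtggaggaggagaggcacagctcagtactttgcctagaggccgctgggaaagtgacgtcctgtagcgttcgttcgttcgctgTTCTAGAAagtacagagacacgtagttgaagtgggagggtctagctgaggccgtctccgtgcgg
Dnajb6: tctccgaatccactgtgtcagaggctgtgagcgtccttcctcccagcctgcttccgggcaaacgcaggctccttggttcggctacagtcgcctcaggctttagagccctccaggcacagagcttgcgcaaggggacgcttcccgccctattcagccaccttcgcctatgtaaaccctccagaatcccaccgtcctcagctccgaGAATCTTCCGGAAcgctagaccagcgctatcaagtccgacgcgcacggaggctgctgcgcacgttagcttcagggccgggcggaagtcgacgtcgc
Dnajc3: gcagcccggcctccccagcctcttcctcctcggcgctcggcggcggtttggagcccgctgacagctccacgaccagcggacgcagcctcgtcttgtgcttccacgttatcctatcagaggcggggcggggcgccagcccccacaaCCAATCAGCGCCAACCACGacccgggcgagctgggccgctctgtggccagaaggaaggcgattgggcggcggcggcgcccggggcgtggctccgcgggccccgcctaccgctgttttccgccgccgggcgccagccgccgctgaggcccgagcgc

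The 3-unit element of Dnajb6 began at base −46, counted with the start as 0, the 2-unit elements of Dnaja4 at −90 and −52, that of Dnaja1 at −124, that of Dnajb4 at −14 and the ERSE of Dnajc3 at −105. Of the 6 members above, Dnaja1 and Dnaja4 had a heat shock element, and Dnajb1, Dnaja3 and Dnajb5 had no element of either heat shock pattern in their windows. None was found for Dnajc15, but only 37 of 45 members had a window, and whether Dnajc15 was among them was not recorded. Dnajb6, with the 3-unit element, did not have the pattern of Dnajb1, and 5xFAD-21 was its lowest 5xFAD library. These matches are a description of the windows and not of binding.

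Dnajb2, a co-chaperone of neurons that sorts ubiquitinated clients to the proteasome, lies at chr1:75236406-75245692 on the plus strand of GRCm38. It had 29.6, 41.6, 26.8 and 27.8 FPKM in the 5xFAD libraries, against 17.6, 20.1, 23.6 and 16.8 FPKM in the wild type libraries. Every 5xFAD library lay above every wild type library, with 5xFAD-2 the highest and Normal-22 the nearest wild type library. The means were 31.5 ± 6.86 FPKM in 5xFAD and 19.5 ± 3.08 FPKM in wild type (SD, n = 4 each), a log2 fold change of 0.67 (standard error 0.17, 1.60-fold, unadjusted p = 0.00333, adjusted p = 0.525). Without 5xFAD-2 it was 0.53 (unadjusted p = 0.00518), and without 5xFAD-2 and 5xFAD-21 it was 0.54 (unadjusted p = 0.0158).

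Dnajb4, a cytosolic relative of Dnajb1 found in muscle and brain, lies at chr3:152178511-152210302 on the minus strand. It had 49.4, 68.4, 46.3 and 57.8 FPKM in the 5xFAD libraries, against 34.6, 33.2, 45.2 and 37.8 FPKM in the wild type libraries. The groups did not overlap, but 5xFAD-3 and Normal-22 lay close together. The log2 fold change was 0.55 (standard error 0.15, 1.46-fold, unadjusted p = 0.00599, adjusted p = 0.541), and it was 0.35 (unadjusted p = 0.0604) without 5xFAD-2 and 5xFAD-21. Dnajb6, which keeps polyglutamine and amyloid peptides from aggregating, had 61.0, 64.2, 54.1 and 47.9 FPKM in 5xFAD, against 42.5, 41.9, 54.2 and 45.8 FPKM in wild type. Normal-22 reached the level of 5xFAD-3, and the log2 fold change of 0.30 (standard error 0.13, unadjusted p = 0.0471, adjusted p = 0.624) was the smallest of the 6 with an unadjusted p under 0.05. Exons of Dnajb6 overlap Gm5129 on the opposite strand. Dnajb5 had 2.98 to 4.39 FPKM in 5xFAD and 3.14 to 3.87 FPKM in wild type, a log2 fold change of 0.06, and Dnajb3 had 1.35 to 2.71 FPKM in 5xFAD and 0.963 to 2.23 FPKM in wild type.

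**Figure D4:**
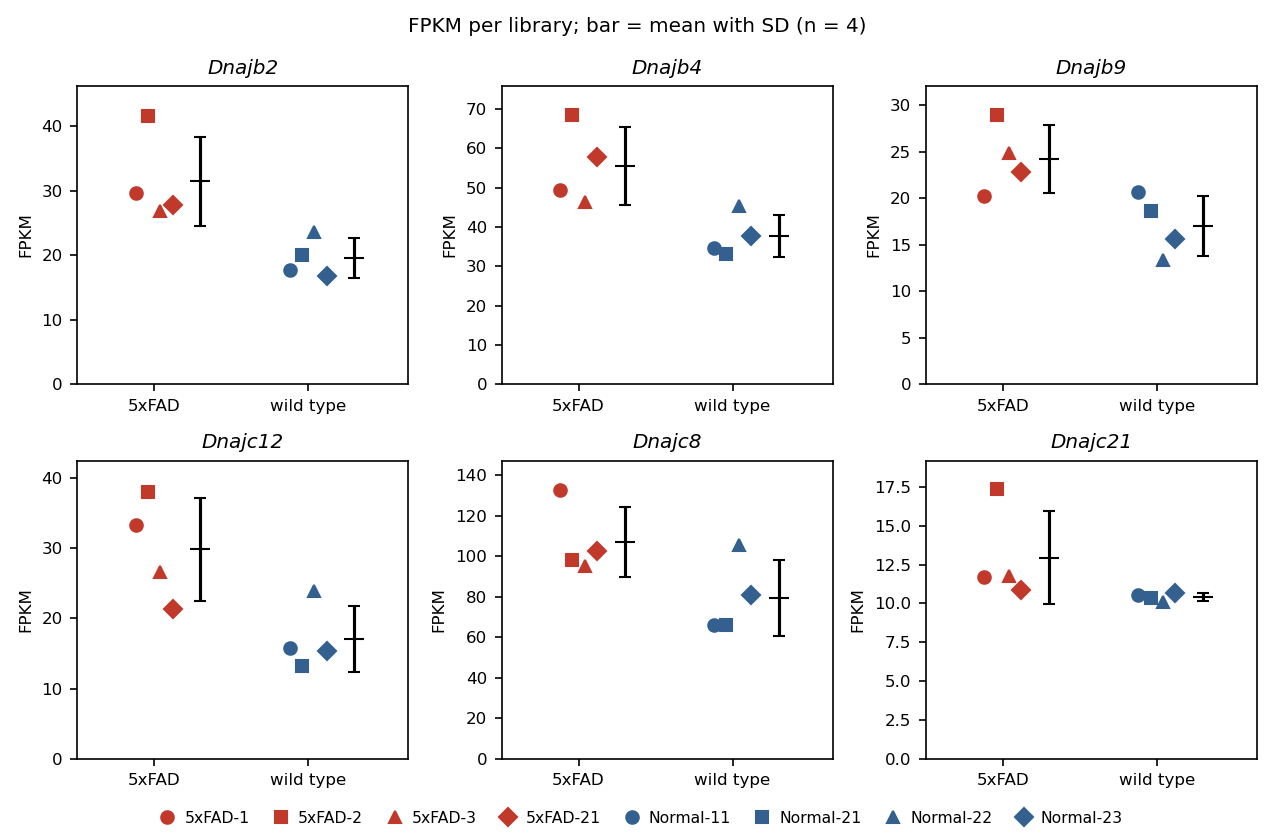
FPKM per library of Dnajb2, Dnajb4, Dnajb9, Dnajc12, Dnajc8 and Dnajc21, 5xFAD (red) left of wild type (blue), with a symbol for each library and the mean with SD (n = 4) beside the points. The groups do not overlap for Dnajb2, Dnajb4 and Dnajc21, and the triangle of Normal-22 is the highest wild type point for Dnajb2, Dnajb4, Dnajc12 and Dnajc8.

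Members of the endoplasmic reticulum assist the lumenal HSP70, Hspa5, also called BiP. Dnajb9, which binds misfolded secretory proteins and holds the stress sensor IRE1 inactive, had 20.3, 28.9, 24.8 and 22.8 FPKM in the 5xFAD libraries, against 20.6, 18.6, 13.3 and 15.6 FPKM in the wild type libraries. Only 5xFAD-1 lay within the range of the wild type libraries, just under Normal-11. The log2 fold change was 0.51 (standard error 0.16, 1.43-fold, unadjusted p = 0.0127, adjusted p = 0.559), and the exact permutation test on FPKM gave 0.0571. Its exons overlap Mir5627 on the opposite strand. Dnajb9 was the member of this compartment with an unadjusted p under 0.05. Dnajb11, a soluble co-chaperone of BiP that is also secreted, had 26.3, 35.5, 42.6 and 32.3 FPKM in 5xFAD, against 38.5, 31.3, 28.4 and 28.1 FPKM in wild type, and 5xFAD-1 was its lowest library (log2 fold change 0.10, adjusted p = 0.865). Dnajc3, an inhibitor of the kinase PERK, had 33.2, 54.4, 52.7 and 41.8 FPKM in 5xFAD, against 54.4, 48.4, 29.0 and 44.7 FPKM in wild type, with Normal-22 lowest (0.06, adjusted p = 0.954). The sign turned for Dnajb11 without 5xFAD-3 (−0.0081), and for Dnajc3 without 5xFAD-2 (−0.039), 5xFAD-3 (−0.024) or Normal-22 (−0.13). Dnajc10, which reduces disulfide bonds before degradation, had 64.3, 67.6, 58.2 and 51.9 FPKM in 5xFAD, against 48.9, 45.5, 61.5 and 52.0 FPKM in wild type (0.22, adjusted p = 0.680).

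None of the membrane-bound members of the endoplasmic reticulum passed an unadjusted p of 0.05. Dnajb12, which takes part in the degradation of membrane proteins, had 16.7, 14.9, 15.2 and 16.2 FPKM in 5xFAD, against 17.1, 16.6, 18.8 and 18.2 FPKM in wild type. 5xFAD-1 alone overlapped the wild type range, and the log2 fold change was −0.17 (standard error 0.09, unadjusted p = 0.101, adjusted p = 0.654). Its close relative Dnajb14 had 13.3 to 14.5 FPKM in 5xFAD and 12.1 to 15.8 FPKM in wild type (−0.02). Dnajc1, which binds ribosomes at the membrane, had 8.48, 9.61, 10.5 and 8.47 FPKM in 5xFAD, against 12.8, 11.4, 8.12 and 9.46 FPKM in wild type (−0.16, adjusted p = 0.797). Dnajc14, Dnajc16 and Dnajc25 had log2 fold changes of 0.08, −0.06 and 0.00.

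Dnajc12, which assists tryptophan and tyrosine hydroxylases, lies at chr10:63382443-63410576 on the plus strand. It had 33.3, 38.0, 26.6 and 21.4 FPKM in the 5xFAD libraries, against 15.7, 13.2, 23.9 and 15.3 FPKM in the wild type libraries. Only Normal-22 reached into the 5xFAD range, above 5xFAD-21. The means were 29.8 ± 7.33 FPKM in 5xFAD and 17.03 ± 4.73 FPKM in wild type (SD, n = 4 each), a log2 fold change of 0.81 (standard error 0.23, 1.75-fold, unadjusted p = 0.00659, adjusted p = 0.545). The exact permutation test on FPKM gave p = 0.0571. The log2 fold change was 0.68 without 5xFAD-2, 0.84 (unadjusted p = 0.0124) without 5xFAD-2 and 5xFAD-21, and 0.98 without Normal-22. Its client gene Tph1 was likewise highest in 5xFAD-2 and 5xFAD-1 and had its highest wild type value in Normal-22. The other pinealocyte markers also had their highest wild type value in Normal-22, except Aanat, which was lowest there. Tph1 in 5xFAD-3 (741 FPKM) and 5xFAD-21 (737 FPKM) lay below Normal-22 (1236 FPKM) and Normal-23 (968 FPKM). Dnajc12 lay above every wild type library in 5xFAD-3 and below Normal-22 in 5xFAD-21. The part of pinealocyte content in the Dnajc12 values was not tested. The log2 fold change of Tph1 was 0.46 (adjusted p = 0.763). Tph2 was under 0.1 FPKM in every library, and Th did not reach the level required for a test.

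Dnajc8 had 133, 98.2, 95.3 and 103 FPKM in 5xFAD, against 65.8, 65.8, 106 and 81.0 FPKM in wild type. Normal-22 lay within the 5xFAD libraries, and the log2 fold change was 0.44 (standard error 0.18, 1.36-fold, unadjusted p = 0.0363, adjusted p = 0.607). Dnajc21, which helps to mature the large ribosomal subunit, had 11.7, 17.4, 11.8 and 10.9 FPKM in 5xFAD, against 10.5, 10.3, 10.1 and 10.7 FPKM in wild type. The groups did not overlap, but 5xFAD-21 lay just above Normal-23 and 5xFAD-2 far from the rest. The log2 fold change was 0.28 (standard error 0.15, unadjusted p = 0.0931, adjusted p = 0.653) and came to 0.13 (unadjusted p = 0.203) without 5xFAD-2. The wild type libraries of Dnajc21 had a coefficient of variation of 2.30%. Dnajc2, which sits on the ribosome beside the nascent chain, Dnajc9, which handles histones H3 and H4, and Dnajc17, a splicing protein, had log2 fold changes of 0.17, 0.26 and 0.09, and none passed an unadjusted p of 0.05.

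The members of vesicles and endosomes are known from neurons. Dnajc5, the cysteine string protein of secretory vesicles, had 30.3, 31.4, 28.5 and 32.4 FPKM in 5xFAD, against 26.8, 29.5, 33.5 and 28.6 FPKM in wild type (log2 fold change 0.05, 95% interval −0.17 to 0.28). Dnajc6, the auxilin that uncoats clathrin vesicles, had 20.5, 18.3, 17.2 and 21.5 FPKM in 5xFAD, against 13.2, 13.1, 22.8 and 16.2 FPKM in wild type, with Normal-22 the highest of all libraries. Its log2 fold change was 0.28 (adjusted p = 0.710). Dnajc13, which works on early endosomes, had 14.0 to 16.2 FPKM in 5xFAD and 15.1 to 16.4 FPKM in wild type (−0.09, 95% interval −0.29 to 0.11).

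In mitochondria, Dnajc19, part of the motor that pulls proteins through the inner membrane, had 27.3, 27.5, 20.6 and 24.6 FPKM in 5xFAD, against 24.9, 25.3, 34.2 and 21.9 FPKM in wild type. Normal-22 was again the highest library, and the log2 fold change was −0.08 (adjusted p = 0.901). Exons of Dnajc19 overlap Fxr1 on the opposite strand. Dnajc15, a protein of the inner membrane that slows complex I, had 8.61, 11.9, 8.85 and 10.2 FPKM in 5xFAD, against 7.84, 7.05, 9.35 and 8.68 FPKM in wild type (0.26, adjusted p = 0.656). Dnajc11 and Dnajc30 had log2 fold changes of 0.06 and 0.11. Dnajc7, a cytosolic protein that binds both HSP70 and HSP90, had 46.4 to 51.1 FPKM in 5xFAD and 41.8 to 48.3 FPKM in wild type (0.09, adjusted p = 0.799), with a coefficient of variation of 4.57% in 5xFAD and 6.55% in wild type. Dnajc28, whose function is little known, had 6.81, 7.72, 5.41 and 6.37 FPKM in 5xFAD, against 4.00, 4.68, 6.44 and 5.98 FPKM in wild type (0.33, adjusted p = 0.661). Dnajc24, an enzyme cofactor of diphthamide synthesis, had the lowest log2 fold change of the family, −0.20 (standard error 0.11, unadjusted p = 0.0996, adjusted p = 0.654). The remaining class C members, Dnajc4, Dnajc18 and Dnajc27, had −0.02, −0.08 and −0.14. Exons of Dnajc7, Dnajc1, Dnajc13, Dnajc17, Dnajc24 and Dnajc30 also overlap genes on the opposite strand (Cnp and Nkiras2, Mllt10, Gm37563, Zfyve19, Dcdc5 and Bud23). Those of Dnajc14 overlap Sarnp on its own strand and Ormdl2 and Tmem198b on the opposite strand, and those of Dnajb14 and Dnajc25 overlap Gm15460 and Gm20503 on their own strands.

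Across libraries the highest value of a member lay most often in 5xFAD-2 and next in Normal-22. Of the 39 tested members 16 were highest in 5xFAD-2, 9 in Normal-22, 6 in 5xFAD-1, 4 in Normal-11, 2 in 5xFAD-21 and 1 each in 5xFAD-3 and Normal-23, and 12 each were lowest in Normal-11 and in Normal-21. The median deviation of a class from its gene means, on the log2 scale, was 0.42, 0.34 and 0.11 in 5xFAD-2 for classes A, B and C. In 5xFAD-21 it was 0.23, 0.08 and −0.02, and in Normal-22 it was 0.06, −0.03 and 0.14. These counts and deviations were not computed for all genes. Whether they are particular to the DnaJ genes was therefore not tested. Members that were high in Normal-22 included Dnajc6, Dnajc19, Dnajc4, Dnajc27 and Dnajb14, while Dnajc3, Dnajb9 and Dnajc25 were at their lowest there. Without Normal-22, 4 members of class B and 6 of class C had an unadjusted p under 0.05, all higher in 5xFAD, beside 9.61% of all genes, and Dnajc12 (unadjusted p = 0.00116), Dnajb2 (0.00183) and Dnajb4 (0.00269) led them. None of them passed the adjustment, which 0.7% of all genes did in that fit. Without 5xFAD-2 and 5xFAD-21, Dnajb2 in class B and Dnajc12 in class C had an unadjusted p under 0.05, 1 member each, beside 2.37% of all genes that were higher.

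**Figure D5:**
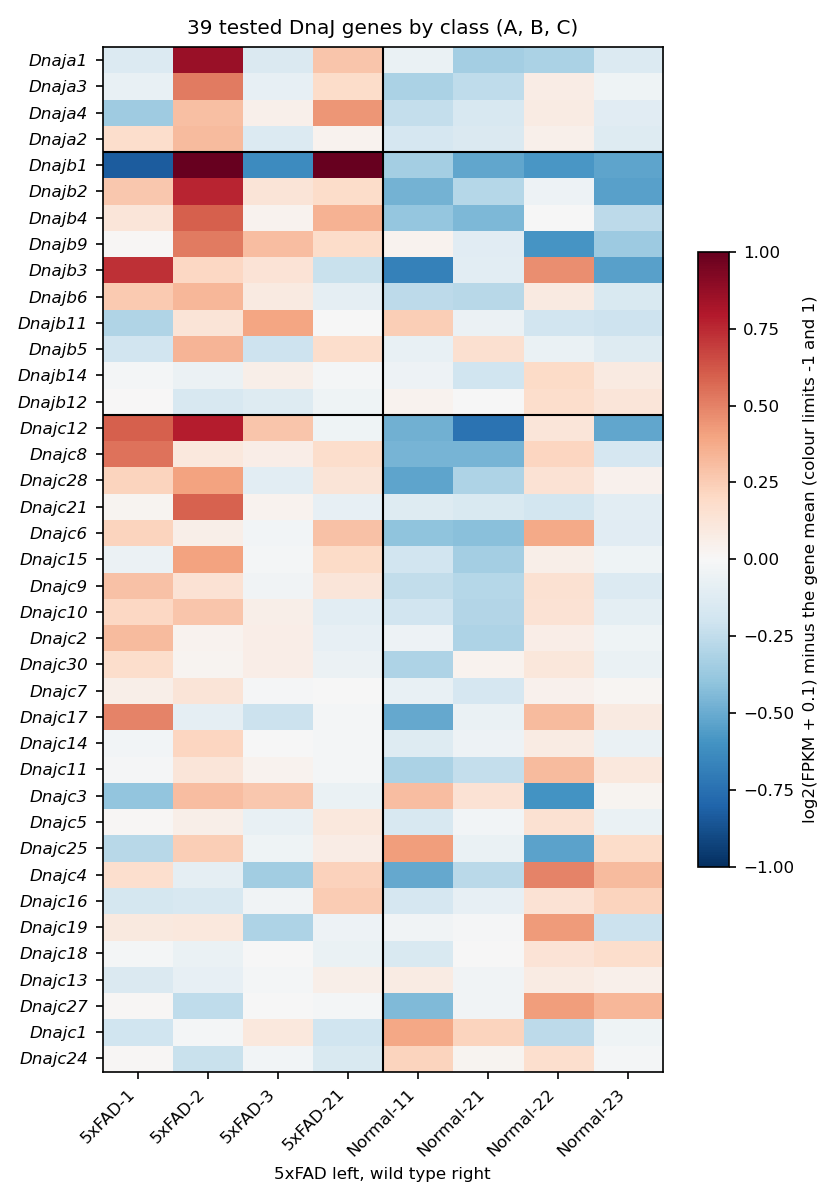
Deviation of log2(FPKM + 0.1) from the mean of each gene over 8 libraries for the 39 tested DnaJ genes, by class and in order of fold change within a class (red above, blue below the mean, colours limited at −1 and 1), 5xFAD libraries on the left. The column of 5xFAD-2 holds the highest value of 16 members and that of Normal-22 of 9 members, and the shares over all genes were not computed.

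The partners of the DnaJ proteins were read in the same fit. Of 10 tested HSP70 genes 9 lay above 0, with a median log2 fold change of 0.37, and 4 were higher at an unadjusted p under 0.05 (Hspa1b, Hspa5, Hspa8 and Hspa12a), with 0 lower, beside 48.7% of all genes tested above 0, 4.6% higher and 3.35% lower. Hspa5 had 199, 373, 374 and 267 FPKM in 5xFAD, against 207, 197, 159 and 189 FPKM in wild type, with 5xFAD-1 inside the wild type range, as it was for Dnajb9. Hspa8, the constitutive cytosolic HSP70, had 735, 862, 619 and 749 FPKM in 5xFAD, against 434, 561, 618 and 619 FPKM in wild type. Of 14 nucleotide exchange factors, which release HSP70 from its client, 11 lay above 0 with a median of 0.21, and Hsph1 (0.58) and Hyou1 (0.37) were higher at an unadjusted p under 0.05. The 3 other co-chaperones had log2 fold changes of 0.27 (Stip1), −0.16 (Stub1) and 0.33 (St13). None of these HSP70 genes, exchange factors and co-chaperones passed an adjusted p of 0.05 in limma.

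Libraries differed in the share of unread bases given by the study, which was low in 5xFAD-3, 5xFAD-2, 5xFAD-1 and Normal-11 and high in 5xFAD-21, Normal-21, Normal-22 and Normal-23. Within the low set (3 5xFAD libraries and 1 wild type library) and within the high set (1 5xFAD library and 3 wild type libraries), the log2 fold change was 0.86 and 0.48 for Dnajb2, 0.64 and 0.59 for Dnajb4, 1.04 and 0.34 for Dnajc12, 0.24 and 0.54 for Dnajb9, 0.71 and 0.31 for Dnajc8, and 0.49 and 0.03 for Dnajb6. The class medians were 0.27 and 0.38 for class A, 0.37 and 0.17 for class B and 0.30 and 0.03 for class C, beside 0.02 and 0.01 for all genes. These within-set values rest on 1 library of a group and carry no test. The GC content of the reads given by the study parted the groups fully, so that it cannot be told apart from genotype.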

How the data were processed

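RNA of pooled mouse pineal glands (4 5xFAD and 4 wild type libraries) was depleted of ribosomal RNA and sequenced in pairs from a stranded kit. The deposited FPKM values were made by the authors, who trimmed reads with Trimmomatic, aligned them to mm10 (GRCm38.p6) with STAR and computed FPKM with Cuffnorm on GENCODE M17. Their versions and the library scaling in Cuffnorm are not given in the sources used here.

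Fold changes and p values were computed from log2(FPKM + 0.1) with limma 3.58.1 in R 4.3.3 (trend, no covariate) for 13094 protein-coding genes with a mean of at least 1 FPKM, with Benjamini-Hochberg adjustment over all of them. The fit was tested on simulated data. Exact two-sided permutation tests used the 70 splits of 8 libraries. Python 3.11.15 handled tables. Depth was read from the lowest values of genes with a single transcript, of which 69.3 to 77.7% lay within 0.1 of a whole fragment, too few to recover counts. Coordinates come from GENCODE M21, which matched 45 of 45 members, and promoters from RefSeq.

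The members, marker and partner lists were chosen with earlier results of these data known. Genes named were all of class A, members of classes B and C with an unadjusted p under 0.05 or groups that do not overlap, the 3 with the largest change in each of these classes, and 17 with known roles. Other members are given by level or fold change only. As alternatives, the pseudocount was set to 0.01 or 1, the filter was dropped or raised to 5 FPKM, all gene classes were fitted, values were scaled by median ratio, quantiles or equal totals, the trend was dropped, a term for unread bases or a replicate block was added, permutation was used, and each library was left out. Removal of the GC trend and leaving out 5xFAD-2 and 5xFAD-21 together were chosen after seeing the data. Some genes of the partner lists are not reported here. Not analysed here were the human transgenes, lncRNAs and circRNAs.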

Additional observations from a re-analysis of the deposited data

Results flagged for a closer look

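In 24 named genes the 4 libraries of each group were searched for a value far from the other 3, and 2 of 48 groups had one, where chance gives about 1 in 20. Dnaja2, the refolding co-chaperone of class A, had 53.2 FPKM in Normal-22, against 45.9 to 47.0 FPKM in the other wild type libraries, a gap of 0.849 of the range. Dnajc21, the ribosome assembly factor, had 17.4 FPKM in 5xFAD-2, against 10.9 to 11.8 FPKM in the other 5xFAD libraries, a gap of 0.856 of the range. Normal-22 is the library with Xist, and among the wild type libraries it had the highest pinealocyte sum and the lowest osteoblast and neutrophil sums. 5xFAD-2 is the library with brown fat transcripts and high Hspa1a. The part of these traits in the flagged values was not tested.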

How the results depend on the processing

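No DnaJ gene passed an adjusted p of 0.05 under any alternative run; the lowest values, 0.0815 for Dnajc12, 0.0956 for Dnajb2 and 0.114 for Dnajb4, came without Normal-22, and over all alternatives these genes ranged up to 0.991. An unadjusted p under 0.05 was kept by Dnajb2 and Dnajc12 in 21 of 21 alternative limma fits, by Dnajb4 in 20, Dnajb9 in 19, Dnajc8 in 12 and Dnajb6 in 10. By exact permutation on FPKM, Dnajb2 and Dnajb4 had p = 0.0286, which groups that do not overlap always get. Dnajc12 and Dnajb9 (0.0571), Dnajb6 (0.0857) and Dnajc8 (0.114) did not pass. Of 504 alternative fits of 24 named genes 490 kept the direction reported above, and 18 genes had it throughout. Fits without the filter or trend, with a higher filter, a replicate block or all gene classes leave each fold change as it was. The direction in those fits was therefore fixed in advance.

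The number of class A members at an unadjusted p under 0.05 was 3 with equal protein-coding totals, and 0 to 2 with each library left out (2 without 5xFAD-1 or 5xFAD-3). That of class B was 2 with the unread-base term, 2 by exact permutation, 1 without both 5xFAD-2 and 5xFAD-21, and 3 to 4 with each library left out. That of class C was 4 with equal totals, and 1 with quantile normalization, the GC trend removed, exact permutation or both 5xFAD-2 and 5xFAD-21 left out. With each library left out it was 1 to 6, with 6 without Normal-22 and 1 without 5xFAD-1, 5xFAD-21, Normal-11, Normal-21 or Normal-23. Over all genes tested, the share higher at an unadjusted p under 0.05 was 6.77% with equal totals (1.66% lower), 5.32% with the unread-base term, 4.85% with quantile normalization, 4.47% with the GC trend removed, 2.11% by exact permutation, 2.37% without both 5xFAD-2 and 5xFAD-21, and 2.3 to 9.61% with each library left out, the highest without Normal-22. The class B median was 0.20 without a filter (12 genes) and 0.21 without both 5xFAD-2 and 5xFAD-21. With each library left out the medians were 0.15 to 0.36 (A), 0.26 to 0.45 (B) and 0.04 to 0.15 (C).

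Directions turned without both 5xFAD-2 and 5xFAD-21 for Dnaja4 (−0.047), Dnajb1 (−0.24), Dnajc5 (−0.0051) and Dnajc3 (−0.038). Dnajb11 was −0.015 with the unread-base term and −0.0081 to 0.22 with each library left out. Dnajc3 was −0.026 with quantile normalization, −0.089 with the unread-base term, −0.00047 with the GC trend removed and −0.13 to 0.20 with each library left out, and Dnajc19 was −0.16 to 0.051 in the same way. The cause of these differences was not tested, apart from the samples left out.

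Libraries at the same place in the listed order of each group were compared, 5xFAD-1 with Normal-11, 5xFAD-2 with Normal-21, 5xFAD-3 with Normal-22 and 5xFAD-21 with Normal-23. Their deviations from the group means had correlations of −0.04, 0.21, −0.34 and 0.24. The places follow the listing only, and the correlation of 5xFAD-21 with Normal-21, which share a number, is not given. With these places as a replicate block, the counts at an unadjusted p under 0.05 were 0, 3 and 1 in classes A, B and C, beside 2.96% of all genes that were higher. Standard errors of the tested members were 0.09 to 0.60 on the log2 scale, and members under 1 FPKM rest on few fragments.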
